A study of Mus musculus with 10 samples.

Results

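Genes of the endoplasmic reticulum (ER) that fold, move and discard secretory proteins, together with the sensors of the unfolded protein response, were described in the kidneys of C57BL/6 mice kept at low or high altitude. The members were the rows of the deposited gene table whose gene name was in a list of 37 genes, of 55952 rows in all. They were 20 folding genes, 6 degradation genes, 5 translocation genes and 6 sensor genes. The sensor genes were counted together with Xbp1, Ddit3 and Ppp1r15a, which act downstream of the sensors. All 37 genes were found, Ddit3 with an additional row that overlaps the first and was listed at 0 in every library, and the 37 rows with reads all passed the filter on low values.

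Bulk RNA sequencing was done on 5 control libraries from mice at 400 m and 5 hypoxia libraries from mice at 4200 m, each kept there for 30 days. No genotype other than the strain and no age is given, and nothing says that the libraries of a group are from separate mice. The p-values therefore measure how these libraries vary, which may be technical. Altitude and site of housing cannot be told apart, because each group lived at its own altitude.

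The ER receives secreted and membrane proteins as they are made, and its chaperones and oxidoreductases fold them, form their disulfide bonds and hold back those that are not yet folded. Proteins that fail are moved back to the cytosol and destroyed by the proteasome, a route known as ER-associated degradation. When unfolded proteins accumulate, the sensors encoded by Ern1 (IRE1), Eif2ak3 (PERK) and Atf6 start the unfolded protein response, in which the transcription factors ATF6 and spliced XBP1 induce chaperone genes. Tubule cells of the kidney depend on this machinery for the many transporters, receptors and secreted proteins that they make.

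Promoter sequences of these genes are shown first, because a known regulatory element of chaperone genes lies in several of them. Whether it bears on the values below was not tested. The ER stress response element, with the letters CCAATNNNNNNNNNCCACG, is bound by the factor NF-Y and by ATF6. RefSeq promoters (GRCm38.p6) were found for 29 of the 37 members, and the 250 bases before each start were searched on both strands. The element was present in 9 of these 29 genes, against 0.130% of 27025 genes in the whole promoter table, and in 6 of the 13 members that fell and 3 of the 16 that did not pass the test. Because the element is known from chaperone genes, its excess among the members is no result of these libraries. A shorter second form, ATTGGNCCACG, was found in 1 member, Herpud1, and in 0.037% of all genes. The UPRE core TGACGTGG was in 0 of the 29 members and 0.603% of all genes, and the element TTGCATCA of C/EBP-ATF factors in 1 member, again Herpud1, and 0.918% of all genes. The first 5 bases of the long element, CCAAT, are common alone (23 of 29 members, 37.5% of all genes), as are its last 5, CCACG (20 of 29, 31.0%). A match of letters is not a binding site, and binding was not measured.

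The 220 bases before the start are given for the 6 members that hold the long element and fell, and for Syvn1 and Herpud1, which hold 1 of the 2 elements and did not pass the test. Sequences run 5′ to 3′ on the strand of the gene, ending at the base before the start, and capitals mark the elements, which begin with CCAAT or ATTGG in the forward direction or with CGTGG in the reverse direction.
Hspa5 (chr2:34771870-34772089, plus strand): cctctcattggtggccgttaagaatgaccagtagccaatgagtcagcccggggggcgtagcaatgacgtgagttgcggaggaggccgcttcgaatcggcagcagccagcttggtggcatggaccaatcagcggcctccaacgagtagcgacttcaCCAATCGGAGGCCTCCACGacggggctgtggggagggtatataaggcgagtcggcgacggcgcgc
Hsp90b1 (chr10:86705445-86705664, minus strand): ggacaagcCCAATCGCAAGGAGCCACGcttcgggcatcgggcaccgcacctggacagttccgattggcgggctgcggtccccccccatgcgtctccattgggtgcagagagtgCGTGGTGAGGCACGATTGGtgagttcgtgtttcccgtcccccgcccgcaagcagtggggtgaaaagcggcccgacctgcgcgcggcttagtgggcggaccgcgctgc
Calr (chr8:84846932-84847151, minus strand): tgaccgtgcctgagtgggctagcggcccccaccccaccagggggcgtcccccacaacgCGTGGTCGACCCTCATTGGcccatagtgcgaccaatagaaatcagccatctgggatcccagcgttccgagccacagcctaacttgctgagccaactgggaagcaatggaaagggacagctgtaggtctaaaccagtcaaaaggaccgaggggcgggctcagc
Creld2 (chr15:88819426-88819645, plus strand): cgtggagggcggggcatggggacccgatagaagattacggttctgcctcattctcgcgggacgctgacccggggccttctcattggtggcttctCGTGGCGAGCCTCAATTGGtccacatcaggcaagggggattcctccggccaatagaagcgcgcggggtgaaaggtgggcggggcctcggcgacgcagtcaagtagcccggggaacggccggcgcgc
Pdia6 (chr12:17266369-17266588, plus strand): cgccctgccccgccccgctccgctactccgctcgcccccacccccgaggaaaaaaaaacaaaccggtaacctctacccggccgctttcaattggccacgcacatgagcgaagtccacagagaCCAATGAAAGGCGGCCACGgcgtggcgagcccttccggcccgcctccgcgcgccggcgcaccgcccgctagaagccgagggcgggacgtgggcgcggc
Dnajc3 (chr14:118937712-118937931, plus strand): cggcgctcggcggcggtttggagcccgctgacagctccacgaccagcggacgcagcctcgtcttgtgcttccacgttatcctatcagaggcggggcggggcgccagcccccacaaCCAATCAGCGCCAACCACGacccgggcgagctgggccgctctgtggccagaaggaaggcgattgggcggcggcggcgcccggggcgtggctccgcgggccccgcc
Syvn1 (chr19:6046356-6046575, plus strand): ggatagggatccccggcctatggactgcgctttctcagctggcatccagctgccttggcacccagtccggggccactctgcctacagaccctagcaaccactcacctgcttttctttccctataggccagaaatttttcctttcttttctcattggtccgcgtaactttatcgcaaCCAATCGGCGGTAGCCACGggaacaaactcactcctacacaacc
Herpud1 (chr8:94386209-94386428, plus strand): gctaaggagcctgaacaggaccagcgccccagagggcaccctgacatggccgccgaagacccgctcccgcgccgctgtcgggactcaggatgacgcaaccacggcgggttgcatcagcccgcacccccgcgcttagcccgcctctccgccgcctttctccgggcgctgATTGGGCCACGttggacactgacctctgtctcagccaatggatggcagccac

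In these windows Hspa5 carries the long element from 65 to 47 bases before the RefSeq start. The deposited gene coordinates begin Hspa5 at 34771970, inside its window, so by them this element lies within the gene. Their starts of Calr, Pdia6 and Hsp90b1 also lie inside the windows shown. Hsp90b1 holds 2 copies in opposite directions, the outer one beginning 212 and the inner one 107 bases before the start. The other members with the long element, Canx and Ero1lb, did not pass the test.

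The values are FPKM, fragments scaled to gene length and to a factor for each library. That factor did not follow the reads assigned to genes. In FPKM times bases, 1 read was worth 60.9 in control replicate 2 (17308339 reads) and 54.9 in hypoxia replicate 5 (16561672 reads). Tests were made with limma on log2(FPKM + 0.5) over 15264 genes. The p-values were adjusted by the Benjamini-Hochberg method over all of them, with a threshold of 0.05. Fold changes are hypoxia minus control on that log2 scale, where the added 0.5 shrinks the change of low genes. Each of the 10 libraries held 16561672 to 17845464 reads assigned to genes, and every tested member rested on at least 63 reads in every library. Kidney markers were present (markers of the thick ascending limb summed to 1088 to 2203 FPKM), while retina markers, a tissue named in the extraction protocol, summed to at most 0.656 FPKM. Hypoxia replicate 5 held high levels of B cell, plasma cell, red cell and pancreas genes, and hypoxia replicate 4 of adrenal genes, so each count is given with and without these 2 libraries.

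Of the 37 members, 17 fell in hypoxia and 0 rose. The background was 7.79% of all tested genes lower and 3.66% higher. The list was chosen with earlier results of these data known, so its excess over the background is not independent support. The median log2 fold change of the members was -0.34, against 0.012 over all genes, and 31 of the 37 had a negative value. Without hypoxia replicates 4 and 5, 20 of 37 were lower and 0 higher, with a median of -0.36 and backgrounds of 7.75% and 4.53%, and all 17 genes of the full comparison were among these 20. In 16 members the 5 hypoxia values all lay below the 5 control values, where the background was 8.54%, and in 0 they all lay above (background 5.68%). Without those 2 libraries 23 members had no overlap on the lower side, where the background was 11.8%, and 1, Herpud1, on the higher side, where it was 9.73%. The direction of the background itself depended on scaling. With FPKM rescaled to the sum without the 100 most abundant genes, 767 genes were lower and 918 higher over all genes, against 1189 and 559 in the main analysis, and the members were at 15 lower and 0 higher. Rescaling by the median of ratios left the counts over all genes at 1189 and 559. It hardly changed the values (median log2 fold change over all genes 0.0117, against 0.0118 in the main analysis), so it is not a separate check. With voom on read counts recovered from FPKM and scaled by their totals, 923 genes were lower and 791 higher. There 15 members were lower and 0 higher. In these bulk samples fewer cells of a type and less RNA per cell cannot be told apart.

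**Figure D1:**
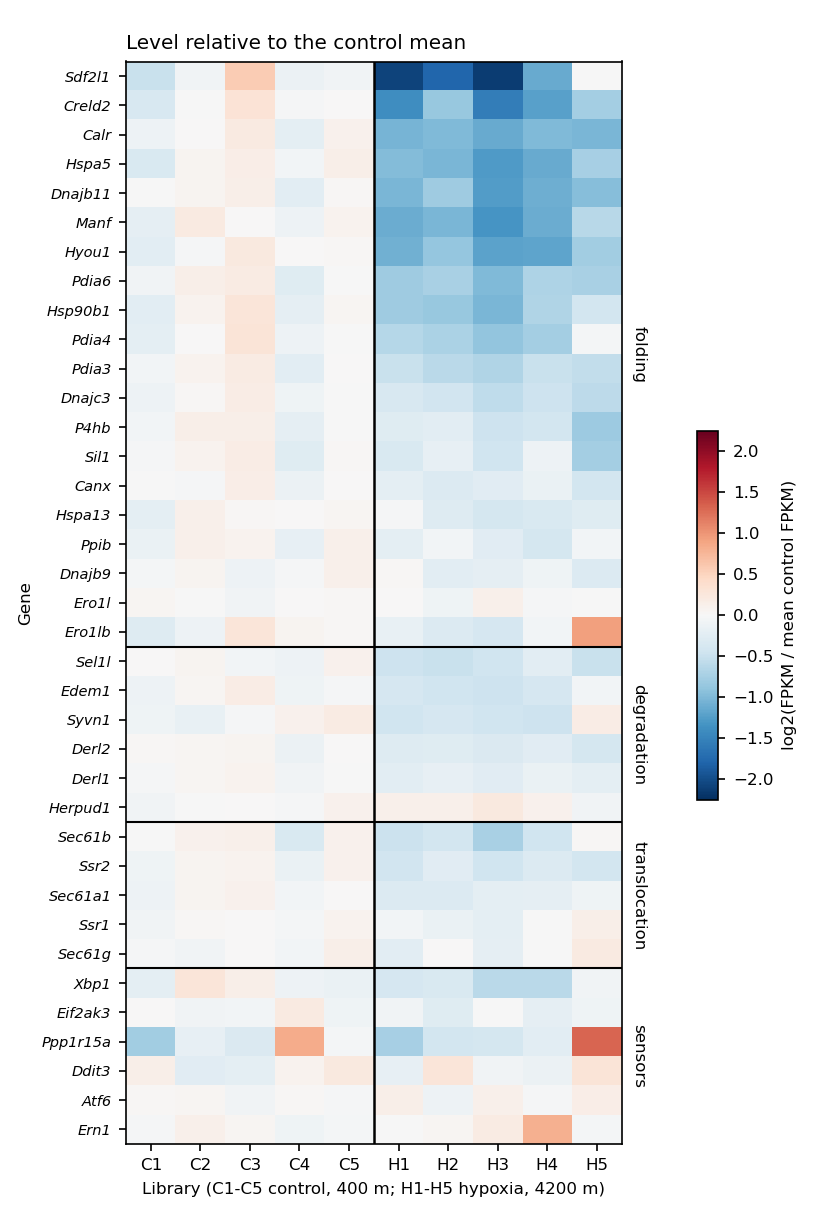
Level of each of the 37 genes in each library as log2 of FPKM over the control mean, with genes in rows by role and libraries in columns (C1 to C5 control, H1 to H5 hypoxia). The 12 folding genes that fell are blue (lower) in the hypoxia columns, except that Sdf2l1 and Pdia4 are near 0 in H5. Ero1l is near 0 throughout, and Ero1lb and Ppp1r15a are red (higher) in H5.

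Counts are given by role. Of 20 folding genes 12 fell, with a median log2 fold change of -0.58, and of 6 degradation genes 4 fell, with a median of -0.29. Of 5 translocation genes 1 fell (median -0.22), and of 6 sensor genes 0 fell and 0 rose (median 0.026, with 1 at an unadjusted p under 0.05). Without hypoxia replicates 4 and 5 the counts were 12 of 20, 5 of 6, 3 of 5 and 0 of 6. No test of 1 role against another was made.

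Summed over the 20 folding genes, the level was 1418 to 1805 FPKM in controls and 924.3 to 1041 FPKM in hypoxia, so that the hypoxia libraries were at 57.8 to 65.2% of the control mean. Degradation genes summed to 91.3 to 99.7% of their control mean, translocation genes to 74.5 to 92.4% and sensor genes to 78.1 to 106.9%. These sums weigh abundant genes most. Herpud1 makes up most of the degradation sum and Xbp1 most of the sensor sum. By gene, the sensor group ran from 76.4% of the control mean for Xbp1, a transcription factor gene, to 117.5% for Ern1. In Ern1 hypoxia replicate 4 alone stood above the rest.

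Hspa5, also called BiP, is the Hsp70 chaperone of the ER lumen and keeps the 3 sensors inactive when it is bound to them. It was at 145.9, 191.8, 205.5, 176.4 and 202.5 FPKM in control replicates 1 to 5 and at 94.2, 90.7, 75.8, 83.8 and 110.3 FPKM in hypoxia replicates 1 to 5. All 5 hypoxia libraries lay below the lowest control, and hypoxia replicate 5 was the highest of them. The gene fell from 184.4 ± 24.3 to 91.0 ± 12.9 FPKM (SD, n = 5 each; log2 fold change -1.02, SE 0.127, adjusted p = 0.00157, limma). Its partner Hsp90b1 (GRP94), the Hsp90 chaperone of the ER, was at 98.1, 122.3, 139.4, 100.7 and 118.9 FPKM in control replicates 1 to 5 and at 66.9, 64.1, 57.1, 72.25 and 87.2 FPKM in hypoxia replicates 1 to 5. The groups did not overlap, and Hsp90b1 fell (log2 fold change -0.74, SE 0.133, adjusted p = 0.00821, limma). With hypoxia replicates 4 and 5 left out, its change was -0.87 on the log2 scale. Hspa13, another member of the Hsp70 family, was at 7.33 ± 0.612 FPKM in controls against 6.12 ± 0.626 FPKM in hypoxia and did not pass the test (adjusted p = 0.0829, limma). It passed without hypoxia replicate 1 (adjusted p = 0.0412), the library with its highest hypoxia value.

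The lectin chaperones Calr and Canx bind newly made glycoproteins by their sugar chains. Calr was at 280.4, 305.7, 346.4, 258.4 and 321.9 FPKM in control replicates 1 to 5 and at 145.7, 152.3, 137.1, 152.7 and 147.7 FPKM in hypoxia replicates 1 to 5. It was the most abundant of the 37 genes in controls, and its hypoxia values stayed within a narrow range at 48.6% of the control mean (log2 fold change -1.03, SE 0.09635, adjusted p = 0.000329, limma). Canx, the membrane-bound relative, was at 127.8, 127.1, 142.7, 117.6 and 130.5 FPKM in control replicates 1 to 5 and at 111.5, 104.4, 108.4, 116.7 and 96.6 FPKM in hypoxia replicates 1 to 5. Its groups did not overlap either, but the difference was smaller and missed the threshold (log2 fold change -0.26, SE 0.0833, adjusted p = 0.0668, limma). Pdia3, a disulfide isomerase that works with both lectins, fell from 199.8 ± 21.4 to 134.9 ± 7.404 FPKM (log2 fold change -0.56, SE 0.0942, adjusted p = 0.00636, limma).

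**Figure D2:**
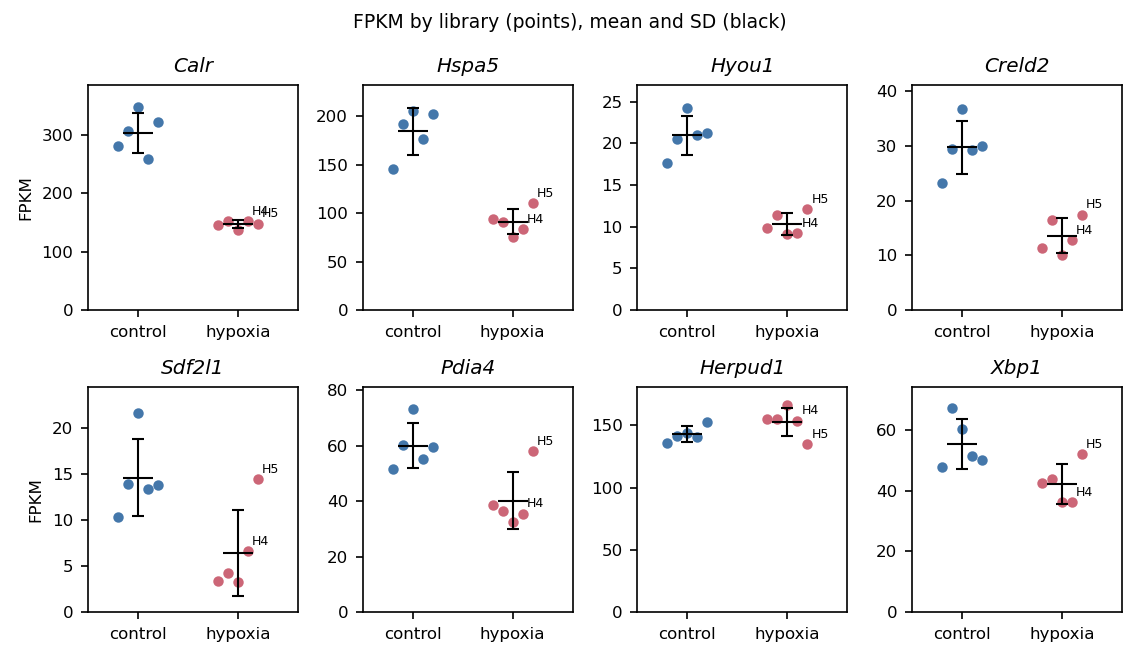
FPKM of 8 genes in each library (points), with the mean and SD of each group in black and hypoxia replicates 4 and 5 labelled H4 and H5. The groups are apart in Calr, Hspa5, Hyou1 and Creld2, whereas H5 lies among the controls in Sdf2l1 and Pdia4.

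Co-chaperones and exchange factors set the cycle of Hspa5. Hyou1, which releases nucleotide from Hspa5 and whose full name in the file is hypoxia up-regulated 1, was at 17.7, 20.5, 24.3, 21.1 and 21.25 FPKM in control replicates 1 to 5 and at 9.91, 11.4, 9.14, 9.27 and 12.1 FPKM in hypoxia replicates 1 to 5. In these kidneys it fell, with every hypoxia library below every control (log2 fold change -0.98, SE 0.1025, adjusted p = 0.000610, limma). Dnajb11, a J-domain protein that brings unfolded clients to Hspa5, was at 37.3, 39.6, 41.1, 32.0 and 38.7 FPKM in control replicates 1 to 5 and at 18.6, 21.6, 15.8, 17.7 and 19.5 FPKM in hypoxia replicates 1 to 5. Its hypoxia mean was 49.4% of the control mean (log2 fold change -1.001, SE 0.09545, adjusted p = 0.000348, limma). Dnajc3, which also has a J domain and restrains PERK, was at 55.0, 60.25, 66.8, 55.4 and 59.2 FPKM in control replicates 1 to 5 and at 46.1, 43.8, 39.98, 43.1 and 39.5 FPKM in hypoxia replicates 1 to 5. It fell by less, to 71.6% of the control mean (log2 fold change -0.48, SE 0.0782, adjusted p = 0.00579, limma). Of the other factors in this cycle, Dnajb9 (adjusted p = 0.202) and Sil1 (adjusted p = 0.0876) did not pass, at 28.1 ± 1.78 FPKM in controls against 25.1 ± 2.40 FPKM in hypoxia for Dnajb9 and 13.3 ± 1.48 FPKM in controls against 10.4 ± 1.74 FPKM in hypoxia for Sil1 (limma).

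Small lumenal proteins that are induced with the chaperones included some of the largest changes. Creld2 was at 23.2, 29.5, 36.9, 29.3 and 30.0 FPKM in control replicates 1 to 5 and at 11.4, 16.4, 10.2, 12.75 and 17.5 FPKM in hypoxia replicates 1 to 5. The groups did not overlap, and it fell to 45.75% of the control mean (log2 fold change -1.11, SE 0.162, adjusted p = 0.00333, limma). Manf, a protein of the ER lumen that can be secreted, was at 17.6, 23.5, 20.4, 18.8 and 21.6 FPKM in control replicates 1 to 5 and at 9.39, 9.998, 8.11, 9.37 and 13.3 FPKM in hypoxia replicates 1 to 5. It fell with no overlap of the groups (log2 fold change -0.9996, SE 0.124, adjusted p = 0.00150, limma).

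Sdf2l1, a partner of Dnajb11, had the lowest log2 fold change of the 37 genes. It was at 10.35, 13.9, 21.7, 13.4 and 13.8 FPKM in control replicates 1 to 5 and at 3.45, 4.27, 3.32, 6.66 and 14.5 FPKM in hypoxia replicates 1 to 5. Hypoxia replicates 1 to 4 lay below every control, whereas hypoxia replicate 5 lay above 4 of the 5 controls. The fall passed the threshold (log2 fold change -1.30, SE 0.3535, adjusted p = 0.04005, limma), but among the 10 fits without 1 library it did so only without hypoxia replicate 5 (adjusted p = 0.0022, against 0.06555 to 0.0943 in the other 9). With hypoxia replicates 4 and 5 left out, the change was -1.82 on the log2 scale (SE 0.198, adjusted p = 0.00139, limma).

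Of 3 further disulfide isomerases 2 fell. Pdia6 was at 59.7, 69.4, 72.04, 52.25 and 62.9 FPKM in control replicates 1 to 5 and at 36.2, 38.3, 31.7, 39.0 and 38.3 FPKM in hypoxia replicates 1 to 5, groups with no overlap (log2 fold change -0.77, SE 0.1005, adjusted p = 0.00195, limma). Pdia4 was at 51.8, 60.1, 73.1, 55.4 and 59.7 FPKM in control replicates 1 to 5 and at 38.6, 36.5, 32.6, 35.5 and 58.1 FPKM in hypoxia replicates 1 to 5, so that hypoxia replicate 5 lay among the controls and the other 4 below them. It fell (log2 fold change -0.59, SE 0.154, adjusted p = 0.0344, limma), with a log2 fold change of -0.73 without hypoxia replicates 4 and 5 (adjusted p = 0.00537). Of the 10 fits without 1 library, the call of Pdia4 held only without hypoxia replicate 5, at an adjusted p of 0.00159 against 0.0526 to 0.0810 in the others. P4hb, the classic disulfide isomerase and also a subunit of collagen prolyl hydroxylase, was at 263.2, 302.0, 301.9, 238.8 and 275.7 FPKM in control replicates 1 to 5 and at 230.0, 235.2, 200.3, 207.3 and 157.6 FPKM in hypoxia replicates 1 to 5. Its groups did not overlap, yet its adjusted p of 0.0505 (limma) sat at the threshold. P4hb passed without hypoxia replicate 2 (0.0413) or hypoxia replicate 5 (0.0267), the latter its lowest library, but missed it without hypoxia replicates 4 and 5 together (0.0714).

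Neither of the oxidases that recharge disulfide isomerases passed the test. Ero1l was at 7.99, 7.65, 7.33, 7.77 and 7.85 FPKM in control replicates 1 to 5 and at 7.73, 7.18, 8.31, 7.55 and 7.64 FPKM in hypoxia replicates 1 to 5, values that overlapped (log2 fold change -0.0073, SE 0.0570, adjusted p = 0.943, limma). Ero1lb, a form known for its high level in the pancreas, was at 3.35, 3.78, 4.975, 4.28 and 4.19 FPKM in control replicates 1 to 5 and at 3.645, 3.335, 3.15, 3.92 and 7.80 FPKM in hypoxia replicates 1 to 5. Hypoxia replicate 5 stood well above all other libraries, and the log2 fold change went from 0.0150 to -0.24 (adjusted p = 0.196, limma) when hypoxia replicates 4 and 5 were left out. Ppib, a proline isomerase of the ER, was at 23.3 ± 2.31 FPKM in controls against 20.4 ± 1.95 FPKM in hypoxia (adjusted p = 0.1895, limma). Of the length the file gives for Ppib, 825 of 3305 bases are shared with Snx22 on the opposite strand, and whether the counting used strand is not given.

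Of the 6 degradation genes Sel1l, Derl2, Derl1 and Edem1 fell. Sel1l, the adaptor of the HRD1 ubiquitin ligase complex, was at 19.0, 19.9, 18.1, 17.5 and 20.4 FPKM in control replicates 1 to 5 and at 13.7, 13.5, 13.9, 16.05 and 13.4 FPKM in hypoxia replicates 1 to 5. It fell with no overlap of the groups (log2 fold change -0.42, SE 0.07035, adjusted p = 0.00640, limma). Derl2, a channel subunit of the same complex, was at 7.405, 7.49, 7.65, 6.645 and 7.31 FPKM in control replicates 1 to 5 and at 6.00, 6.025, 5.84, 6.105 and 5.52 FPKM in hypoxia replicates 1 to 5 and fell as well (log2 fold change -0.29, SE 0.0593, adjusted p = 0.0144, limma). Its relative Derl1 was at 42.4, 44.3, 45.7, 40.6 and 42.7 FPKM in control replicates 1 to 5 and at 36.4, 38.0, 36.0, 38.7 and 37.2 FPKM in hypoxia replicates 1 to 5. Derl1 had no overlap between the groups, but its change was small and near the threshold (log2 fold change -0.21, SE 0.0598, adjusted p = 0.0480, limma). Among the fits without 1 library, Derl1 passed only without hypoxia replicate 5 (adjusted p = 0.0258, against 0.0529 to 0.119 in the others). Rescaled without the 100 most abundant genes, it did not pass (log2 fold change -0.14, adjusted p = 0.1495).

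Edem1, a mannosidase-like protein that marks glycoproteins for disposal, was at 24.4, 27.1, 29.4, 24.5 and 25.9 FPKM in control replicates 1 to 5 and at 20.3, 19.2, 19.05, 20.1 and 25.1 FPKM in hypoxia replicates 1 to 5. The fall passed (log2 fold change -0.34, SE 0.0887, adjusted p = 0.0362, limma), and hypoxia replicate 5 was the only hypoxia library inside the control range. The call held in 2 of the 10 fits without 1 library, those without hypoxia replicate 5 (adjusted p = 0.00327) and without control replicate 4, and reached 0.0879 without control replicate 3. It was lost in the rescaled values too (log2 fold change -0.26, adjusted p = 0.0615). Syvn1, the HRD1 ligase itself, was at 10.1, 9.715, 10.6, 11.6 and 12.4 FPKM in control replicates 1 to 5 and at 7.94, 8.395, 7.995, 7.87 and 12.2 FPKM in hypoxia replicates 1 to 5. It did not pass with all libraries (adjusted p = 0.139, limma), and was lower without hypoxia replicates 4 and 5 (log2 fold change -0.40, adjusted p = 0.0178).

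Herpud1, which recruits ubiquitin ligases to the ER membrane, had a positive log2 fold change. It was at 135.7, 141.6, 143.8, 140.9 and 152.4 FPKM in control replicates 1 to 5 and at 154.8, 155.0, 165.8, 153.7 and 134.5 FPKM in hypoxia replicates 1 to 5. Hypoxia replicates 1 to 4 lay above every control and hypoxia replicate 5 below every control. The difference did not pass the test with all libraries (log2 fold change 0.0940, SE 0.0805, adjusted p = 0.4555, limma) or without hypoxia replicates 4 and 5 (log2 fold change 0.15, adjusted p = 0.1695). In order of level, Herpud1 was the fifth of the 37 genes in controls and stood second in hypoxia, between P4hb at 206.1 and Calr at 147.1 FPKM. Levels per length are compared here with the gene lengths of the file.

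**Figure D3:**
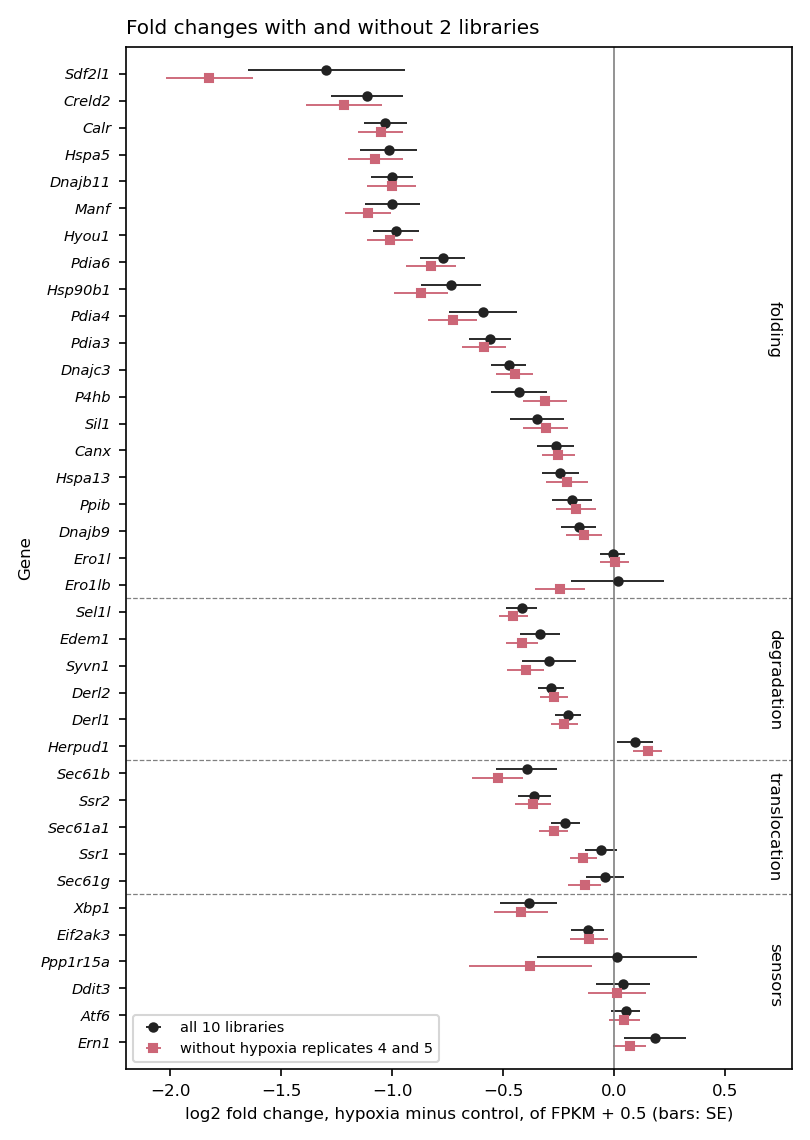
Log2 fold change of each gene (hypoxia minus control, on FPKM + 0.5) with its SE, for all 10 libraries (black circles) and without hypoxia replicates 4 and 5 (red squares). Values run from -1.30 for Sdf2l1 to 0.18 for Ern1 with all libraries, and omission of the 2 libraries moves Sdf2l1, Ero1lb and Ppp1r15a most.

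Translocation genes form the channel through which new chains enter the ER. Ssr2, a subunit of the translocon-associated protein complex, was at 39.95, 44.7, 45.1, 38.4 and 45.5 FPKM in control replicates 1 to 5 and at 31.8, 36.0, 31.4, 34.5 and 32.1 FPKM in hypoxia replicates 1 to 5. It was the only translocation gene that fell with all libraries, with no overlap of the groups (log2 fold change -0.36, SE 0.0751, adjusted p = 0.0146, limma). Sec61a1, the pore subunit, was at 15.9, 18.1, 18.5, 16.6 and 17.5 FPKM in control replicates 1 to 5 and at 13.9, 13.9, 14.8, 15.1 and 16.2 FPKM in hypoxia replicates 1 to 5, close to the threshold (log2 fold change -0.22, SE 0.0659, adjusted p = 0.0546, limma). Sec61b, a small subunit, was at 29.2, 31.25, 31.85, 23.1 and 31.2 FPKM in control replicates 1 to 5 and at 20.9, 21.9, 17.7, 21.5 and 29.7 FPKM in hypoxia replicates 1 to 5 (log2 fold change -0.40, SE 0.136, adjusted p = 0.0850, limma). Both were lower without hypoxia replicates 4 and 5, with log2 fold changes of -0.27 (adjusted p = 0.0291) and -0.53 (adjusted p = 0.0225, limma). Without hypoxia replicate 5 alone the adjusted p was 0.0170 for Sec61a1 and 0.0106 for Sec61b, and Sec61b also passed without control replicate 4 (0.0497). Sec61g, the third subunit, was at 10.5 ± 0.619 FPKM in controls against 10.2 ± 1.27 FPKM in hypoxia (adjusted p = 0.775), and Ssr1, another subunit of the translocon-associated complex, at 12.6 ± 0.512 FPKM in controls against 12.1 ± 1.145 FPKM in hypoxia (adjusted p = 0.589, limma).

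None of the 6 sensor genes passed the test with all libraries (limma). Ern1, the IRE1 sensor that splices Xbp1 mRNA, was at 4.97, 5.485, 5.17, 4.71 and 4.88 FPKM in control replicates 1 to 5 and at 5.005, 5.19, 5.76, 8.77 and 4.89 FPKM in hypoxia replicates 1 to 5. Hypoxia replicate 4 alone stood above the rest (adjusted p = 0.398). Eif2ak3, the PERK kinase that slows translation, was at 7.998, 7.55, 7.66, 9.25 and 7.52 FPKM in control replicates 1 to 5 and at 7.55, 6.605, 7.90, 6.985 and 7.50 FPKM in hypoxia replicates 1 to 5, and its groups overlapped (adjusted p = 0.307). Atf6, the sensor that is cut in the Golgi to release a transcription factor, was at 9.15, 9.24, 8.50, 9.09 and 8.74 FPKM in control replicates 1 to 5 and at 9.79, 8.27, 9.72, 8.78 and 9.95 FPKM in hypoxia replicates 1 to 5 (adjusted p = 0.624). The errors were small for Atf6 and Eif2ak3, with SEs of 0.0656 and 0.0752 around log2 fold changes of 0.0511 and -0.12.

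Xbp1, the transcription factor gene downstream of IRE1, was at 47.7, 67.0, 60.3, 51.2 and 50.01 FPKM in control replicates 1 to 5 and at 42.6, 43.7, 36.35, 36.2 and 52.0 FPKM in hypoxia replicates 1 to 5. Hypoxia replicates 1 to 4 lay below every control and hypoxia replicate 5 did not, and the difference missed the threshold (log2 fold change -0.39, SE 0.127, adjusted p = 0.0746, limma). Without hypoxia replicate 5 alone it passed (adjusted p = 0.0185), and without hypoxia replicates 4 and 5 it did not (adjusted p = 0.0530). A gene total does not separate the spliced from the unspliced form. Ddit3 (CHOP), a factor induced in prolonged ER stress, was at 4.81, 3.66, 3.75, 4.66 and 5.09 FPKM in control replicates 1 to 5 and at 3.86, 5.30, 4.15, 4.01 and 5.35 FPKM in hypoxia replicates 1 to 5 (adjusted p = 0.850). Ppp1r15a (GADD34), which lets translation resume, was at 3.11, 4.69, 4.30, 9.50 and 5.16 FPKM in control replicates 1 to 5 and at 3.205, 4.01, 4.07, 4.57 and 13.2 FPKM in hypoxia replicates 1 to 5. Control replicate 4 and hypoxia replicate 5 were high, and with an SE of 0.3615 a change of moderate size was not detectable in it (adjusted p = 0.985, limma).

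Over the 37 genes, 19 had their highest control value in control replicate 3 and 18 their lowest hypoxia value in hypoxia replicate 3. Of the 17 that fell, these counts were 14 and 14. The same shares over all genes were not computed, and the 17 were picked by the test on these same values. The median CV of the 37 genes was 9.73% among controls and 11.5% among hypoxia libraries, and it was 8.49% among hypoxia replicates 1 to 3. In 28 of 37 genes the CV was larger in hypoxia than in controls, and the share over all genes was not computed here either.

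Hypoxia replicate 5 had the highest hypoxia value in 18 of the 37 genes, against 3, 4, 3 and 9 in hypoxia replicates 1 to 4. How often this library was highest over all genes was not computed, so the count is not shown to be particular to these genes. Of the 17 genes that fell, all 17 were below every control in each of hypoxia replicates 1 to 4, and 14 in hypoxia replicate 5. The 17 were picked by the test on these same values, so this count is no further support. The exceptions in replicate 5 were Sdf2l1, Pdia4 and Edem1. All 7 B cell markers were highest in this library, where they summed to 381.9 FPKM against at most 1.89 in controls and 2.65 in the other hypoxia libraries. Plasma cell markers, from a cell type known for its large ER, summed to 10.5 to 14.8 FPKM in controls, 58.6 to 89.4 in hypoxia replicates 1 to 3, 343.2 in hypoxia replicate 4 and 4825 in hypoxia replicate 5. The antibody genes Igkc and Igha and the joining chain gene Jchain passed the test as higher. In hypoxia replicates 1 to 3 most of the sum was Igkc, at 37.75 to 59.97 FPKM. The plasma cell genes Mzb1 and Derl3 were at 0.188 to 0.576 and 0.286 to 0.663 FPKM in those 3 libraries, at 0.150 to 0.634 and 0.483 to 2.06 FPKM in controls, and at 2.53 and 2.40 FPKM in hypoxia replicate 5. Of 14 pancreas markers 12 were highest in hypoxia replicate 5 and 8 were listed at 0 in all controls. Without Cela1, which every library expressed, they summed to 45.5 FPKM there, at most 0.111 in controls and at most 0.498 in the other hypoxia libraries. Red cell markers summed to 6648 FPKM in hypoxia replicate 5, against 96.05 to 674.4 in the other 9 libraries. The part of these cells in the values of hypoxia replicate 5 was not tested.

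In hypoxia replicate 4 all 9 adrenal markers were highest, summing to 1111 FPKM against at most 31.0 in the other 9 libraries, and fat markers reached 676.4 FPKM against at most 192.1. Ern1 and Sel1l had their highest hypoxia values in this library. Proximal tubule markers summed to 27120 to 32890 FPKM in controls and to 12720 to 26550 FPKM in hypoxia. Without Kap, an androgen-regulated gene that dominates this sum, they were at 3592 to 4872 FPKM in controls, 3930 to 4479 in hypoxia replicates 1 to 3, 3658 in hypoxia replicate 4 and 2001 in hypoxia replicate 5. Of the 12 proximal markers 1, Kap, fell and 0 rose (median log2 fold change -0.22), while without hypoxia replicates 4 and 5 Slc5a2 was lower and Aqp1 higher, at a median of 0.049. The part of these markers in the members' values was not tested.

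**Figure D4:**
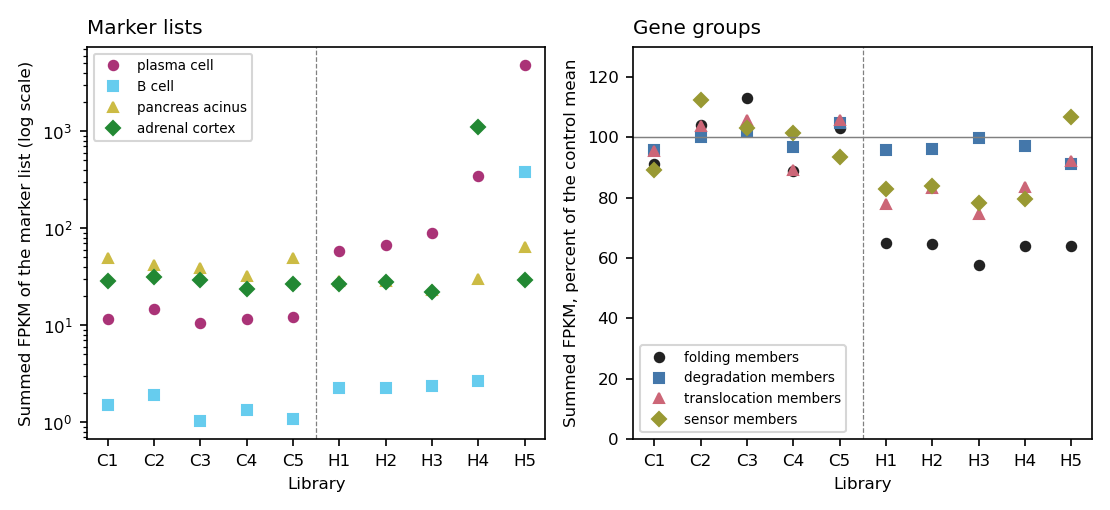
Left, summed FPKM of 4 marker lists in each library on a log scale, pancreas with Cela1. Right, summed FPKM of the genes of each role as percent of the control mean, with C1 to C5 control and H1 to H5 hypoxia. Plasma cell and B cell markers peak in H5 and adrenal markers in H4, while folding genes lie between 57.8 and 65.2% in all 5 hypoxia libraries.

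Other ER genes were taken from lists by function, of which 137 genes were found and 133 tested. Of these 25 were lower and 3 higher (median log2 fold change -0.11), and 25 and 8 without hypoxia replicates 4 and 5. The lower share was 18.8%. The background over all tested genes was 7.79% lower and 3.66% higher, and 7.75% and 4.53% without those 2 libraries. These lists too were chosen with earlier results of these data known, so a share above the background is not independent support. The list with the largest number of falls was N-glycosylation and glycan trimming, the steps that attach and read the sugar chains bound by Calr and Canx. There 11 of 21 genes were lower and 0 higher, with a median of -0.24, and 12 of 21 without hypoxia replicates 4 and 5. Mlec, a lectin that binds the first trimmed glycan, fell from 205.7 ± 16.8 to 113.0 ± 18.4 FPKM (log2 fold change -0.87, SE 0.126, adjusted p = 0.00322, limma). Lman2, a cargo lectin, fell from 31.65 ± 1.90 to 24.9 ± 0.625 FPKM (log2 fold change -0.34, SE 0.0609, adjusted p = 0.00816), and so did Tmem258, a subunit of the oligosaccharyltransferase, from 12.1 ± 1.23 to 8.77 ± 0.810 FPKM (log2 fold change -0.44, SE 0.0871, adjusted p = 0.0118, limma). Prkcsh, the β subunit of glucosidase II, fell from 30.3 ± 1.51 to 21.15 ± 3.405 FPKM (adjusted p = 0.0137, limma).

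Other folding genes went in both directions, with 4 of 31 lower and 2 higher, and 4 and 5 without hypoxia replicates 4 and 5. The lower share was 12.9%, against 7.79% of all genes. Ppic, a second proline isomerase, fell from 74.6 ± 11.7 to 35.9 ± 8.36 FPKM (log2 fold change -1.06, limma adjusted p = 0.004885), and Fkbp2, a proline isomerase of another family, from 33.6 ± 2.20 to 19.1 ± 5.57 FPKM (limma adjusted p = 0.0120). Erp29, a lumenal protein of the disulfide isomerase family, fell from 10.85 ± 1.415 to 6.61 ± 1.18 FPKM (adjusted p = 0.00826). Prdx4, a peroxidase that can oxidise disulfide isomerases, was the exception. It was at 8.45, 9.63, 8.62, 7.34 and 9.09 FPKM in control replicates 1 to 5 and at 15.1, 15.1, 13.8, 15.1 and 13.6 FPKM in hypoxia replicates 1 to 5. Every hypoxia library lay above every control, and Prdx4 rose (log2 fold change 0.72, SE 0.0758, limma adjusted p = 0.000610). Tmx4, the other gene that rose, is named after its values were seen. It changed by 0.26 (adjusted p = 0.0312) and passed in 2 of the 10 fits without 1 library, those without control replicate 4 and hypoxia replicate 5, with an adjusted p of up to 0.0773 in the others.

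Of 25 other degradation genes 6 were lower and 0 higher, and 3 and 1 without hypoxia replicates 4 and 5. The lower share was 24.0%, and 12.0% without those 2 libraries, against 7.79% and 7.75% of all genes. Vcp, the ATPase that pulls proteins out of the ER membrane, fell from 69.3 ± 4.86 to 50.8 ± 1.79 FPKM (log2 fold change -0.44, SE 0.0709, adjusted p = 0.005255, limma). Its cofactors Ubxn4 and Nploc4 fell with log2 fold changes of -0.31 and -0.30 (adjusted p = 0.00829 and 0.0122). Edem3, a relative of Edem1, had -0.31 and lost its call without hypoxia replicates 4 and 5 (adjusted p = 0.0532). Of 31 other translocation genes 3 were lower and 1 higher, and 4 and 2 without those 2 libraries. Here the lower share was 9.68%, near the 7.79% of all genes. Sec11a, the catalytic subunit of signal peptidase, fell from 17.4 ± 0.910 to 12.5 ± 1.49 FPKM (log2 fold change -0.47, SE 0.0838, adjusted p = 0.00803, limma), while Spcs3, another subunit of that complex, rose from 22.95 ± 0.661 to 29.15 ± 2.90 FPKM (log2 fold change 0.33, SE 0.0733, adjusted p = 0.0183). The call of Spcs3 was lost without control replicate 1 (adjusted p = 0.0559). Srprb, a subunit of the receptor for the signal recognition particle, had a log2 fold change of -0.26 and Srp54a, a subunit of the particle, of -0.59. When each library was left out in turn, the calls held 4 and 2 times in 10, and the highest adjusted p, without control replicate 5, was 0.0573 and 0.0813.

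Among 25 other sensor and signalling genes 1 was lower and 0 higher, against 2 and 0 without hypoxia replicates 4 and 5. The lower share was 4.0%, below the 7.79% of all genes. Creb3l1, a membrane-bound transcription factor like ATF6, fell from 3.75 ± 0.418 to 2.34 ± 0.236 FPKM (log2 fold change -0.58, SE 0.0929, adjusted p = 0.00519, limma).

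**Figure D5:**
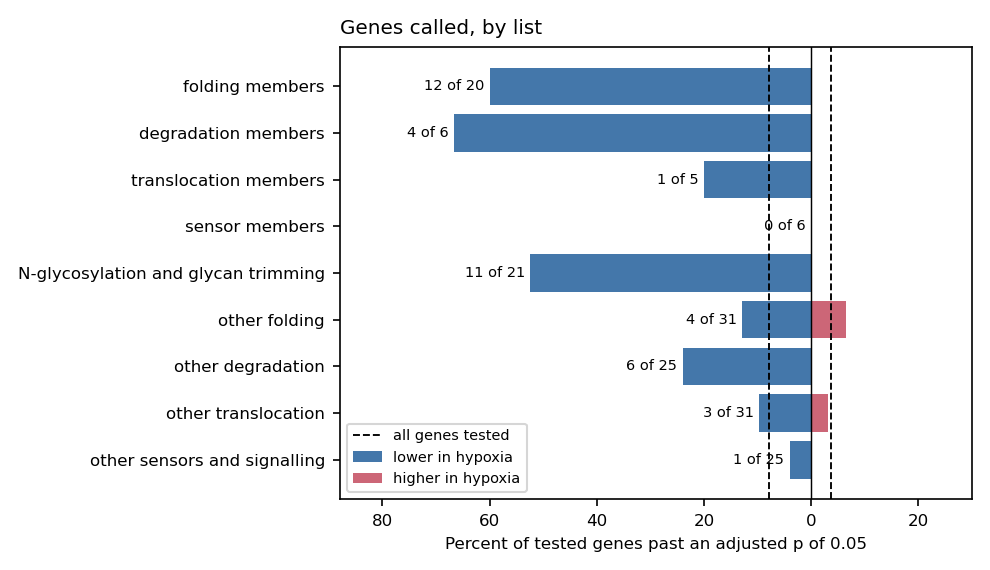
Percent of tested genes that were lower (blue, to the left) or higher (red, to the right) in hypoxia at an adjusted p of 0.05, by list, with the number lower of the number tested. Dashed lines mark the shares over all tested genes, 7.79% lower and 3.66% higher, and the folding, degradation and N-glycosylation lists extend farthest to the left.

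For reference, in the file's mouse coordinates, which match GRCm38, the protein-coding gene Hspa5 (ENSMUSG00000026864) occupies chromosome 2 from 34771970 to 34777547, Calr (ENSMUSG00000003814) chromosome 8 from 84841850 to 84846934, Hyou1 (ENSMUSG00000032115) chromosome 9 from 44379490 to 44392369 and Herpud1 (ENSMUSG00000031770) chromosome 8 from 94386438 to 94395377. The 37 genes lie on 17 chromosomes. Exons of Ssr2 share 12.8% of the gene's length with Gm10704 and those of Hsp90b1 10.3% with 1810014B01Rik, both on the opposite strand. If the counting did not use strand, those reads could not be told apart.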

How the data were processed

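Gene expression was measured by bulk RNA sequencing in 10 mouse kidney libraries, 5 per group, grouped by the treatment label. The authors deposited 1 table of FPKM per gene, with gene length, position and name, per the file headers. The submitters' processing notes list HISAT2 2.0.5 and a human build, whereas the gene IDs and coordinates are those of mouse GRCm38 (99.4% of 55227 rows found in that annotation had the same start and end). How reads were counted, and whether by strand, is not given in the sources used here.

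Values multiplied by gene length gave whole reads (100% within 0.05 of a whole number), which served for depth and for an alternative fit. The members and lists were chosen with earlier results of these data known. Genes averaging 0.5 FPKM or more were tested with limma 3.58.1 in R 4.3.3 (trended, robust variance) on log2(FPKM + 0.5), with the group as the only term. All members were named. Every library's value was meant for up to 8 folding genes, for members past the threshold in the other roles and for all sensors, and was also given for other members after seeing them. In each other list up to 4 genes with the smallest p were named. The 5 sequences searched beside the long element were counted in the same windows. On simulated data with 5 libraries against 5 (14567 genes) log2 changes of 0.5 were found in 51.5% of 66 genes, of 1 in 98.5% of 66 and of 2 in 98.3% of 59, with 15 false calls. The simulation gave all genes the same spread beyond counting error and held no library with markers of other tissues. These shares are therefore not the power of the real comparison. Reads of near-identical gene copies may be split. Counts of 3 reads, the limit a count of 0 allows, correspond to 0.165 to 0.183 FPKM for a gene of 1 kb, for counting error only. Alternatives were the pseudocount, the filter, the scaling, the error model, the threshold, a replicate block, voom on the recovered reads and leaving out libraries.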

Additional observations from a re-analysis of the deposited data

Results flagged for a closer look

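In groups of 5 libraries, a value was picked out where its gap to the nearest other value was more than 0.71 of the group's range. Of 74 groups of member values 9 were picked out. For a single group chance alone gives about 1 in 20. The 74 groups share the same libraries, so they are not separate trials and the 9 cannot be judged by that rate. The share over all genes was not computed. In 5 of the 9 the value was the highest of the hypoxia group, in replicate 5. These were Pdia4 at 58.1 FPKM (the other hypoxia libraries were at 32.6 to 38.6), Edem1 at 25.1, Syvn1 at 12.2, Ero1lb at 7.80 and Ppp1r15a at 13.2 FPKM (others 3.21 to 4.57). Hypoxia replicate 4 stood above its group in Sel1l at 16.1 and in Ern1 at 8.77 FPKM. Hypoxia replicate 1 did so in Hspa13 at 7.19 FPKM. Control replicate 4 stood above the other controls in Eif2ak3, at 9.25 FPKM against 7.52 to 7.998 in the others. The markers of other cell types in hypoxia replicates 4 and 5 are given with the results, and their part in these values was not tested.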

How the results depend on the processing

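No alternative reversed the direction of a called result. Beyond the scaling without the 100 most abundant genes (767 lower, 918 higher over all genes), counts over all genes were 349 lower and 107 higher at an adjusted p of 0.01, 703 and 263 with no filter, and 1944 and 1309 with array weights. With the replicate block they were 734 and 265. At 0.01, 11 members were lower, with 1 degradation and 0 translocation genes, and 8 other ER genes lower and 1 higher. With the replicate block 11 members were lower, with 1 degradation and 0 translocation genes, and 15 other ER genes lower and 1 higher; the members that lost the call were Pdia4, Sdf2l1, Derl1, Edem1, Derl2 and Ssr2. Whether replicate numbers pair libraries across the groups is not given. Same-numbered libraries correlated at -0.0771 to 0.0861 after removing group means, and 1 of 5 matched its own number best. These values cannot exclude a pairing, because hypoxia replicates 4 and 5 also differ from their group in markers of other tissues. Degradation genes stood at 2 with no filter, 2 in the rescaled values and 2 with voom. Translocation genes stood at 2 with a filter of 2 FPKM, 3 with array weights and 3 without hypoxia replicates 4 and 5, and 1 sensor gene was lower with array weights. Other ER genes were 42 lower and 8 higher with array weights, 7 higher in the rescaled values, 6 higher with voom and 8 higher without hypoxia replicates 4 and 5. In the comparison without those libraries 13 members were lower at 0.01 and 12 with the replicate block. Leaving out each library in turn gave 603 to 1630 genes lower and 221 to 1094 higher, 13 to 23 members lower and 0 higher (23 without hypoxia replicate 5), 10 to 14 folding, 2 to 5 degradation, 1 to 3 translocation and 0 to 1 sensor genes lower, 16 to 32 other ER genes lower and 1 to 9 higher, and 14 to 23 members lower in the comparison already without hypoxia replicates 4 and 5. Of the 17 members that fell, 13 passed in all 10 such fits. The cause of these shifts was not tested. The number of libraries limits what can be seen of small changes.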

Other observations

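As a share of all FPKM the 37 genes made up 0.479 to 0.577% of each control library and 0.357 to 0.431% of each hypoxia library. In podocyte markers 1 of 6 genes was higher with all libraries and 5 of 6 without hypoxia replicates 4 and 5. The background was 3.66% and 4.53% of all genes. Podocyte sums were 80.5 to 99.9 FPKM in the control group and 116.0 to 149.0 FPKM in hypoxia replicates 1 to 3. They were 152.3 FPKM in hypoxia replicate 4 and 74.3 FPKM, below every control, in hypoxia replicate 5. Macrophage markers summed to 297.0 FPKM and T cell markers to 63.0 FPKM in hypoxia replicate 5, against at most 66.1 and 2.08 FPKM in controls. Liver markers summed to 99.2 to 155.1 FPKM in the control group, beside 51.2, 121.4, 49.0, 49.2 and 34.9 FPKM in hypoxia replicates 1 to 5. The sum does not stand for the list. Of 5 liver genes tested 1 was lower and 0 higher, 2 had a negative log2 fold change, and the median was 0.125.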
